A study of Jatropha curcas with 4 samples.

Results

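The genes described here are the group I and group III members of the Jatropha AP2/ERF family that were transcribed in roots. The study's list of AP2/ERF genes holds 5 gene models of group I and 23 of group III. Of these 28 models, 8 reached 1 CPM (counts scaled to a common library size) in at least 2 of the 4 libraries. They were JcERFI-2, JcERFI-3, JcERFI-4 and JcERFI-5 in group I, and JcERFIII-1, JcERFIII-3, JcERFIII-5 and JcERFIII-11 in group III. The whole series holds 57437 gene models, of which 17410 passed the same minimum and were tested. The members were chosen by these CPM values, so their being detected is not a result.

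RNA from whole roots of Jatropha curcas cv. Chai Nat, an oilseed shrub of the spurge family, was sequenced. The plants were 30 days old and at the six-leaf stage, and were grown outdoors. Waterlogging-stressed (WS) plants stood for 24 h in water kept 3 cm above the soil, and non-stress (NS) plants stood in the same kind of container without water for the same 24 h. Each treatment had 2 libraries, which the submitters call independent biological replicates. The series' design text speaks of mRNA pools but not of the number of plants in a pool.

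Group I and group III belong, with groups II and IV, to the DREB-type branch of the ERF family. These transcription factors carry 1 AP2 domain, a short fold that in Arabidopsis proteins binds the dehydration-responsive element (the C-repeat) in promoters of stress genes. Arabidopsis group III holds the CBF/DREB1 factors, which act in cold acclimation, and the TINY-like factors. Arabidopsis group I holds RAP2.4 and its relatives, which are linked to drought and wound responses. Waterlogging removes oxygen from roots, and the ERFs best known for low oxygen are those of group VII.

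Library totals ran from 1204502 reads (NS replicate 2) to 6110438 reads (NS replicate 1), and 3 reads, the limit that a count of 0 allows, equalled between 0.459 and 2.27 CPM. The treatment was checked with alcohol dehydrogenase, the last enzyme of ethanol fermentation. ADHa had 215 and 184 CPM in NS and 8020.5 and 11388 CPM in WS, and was up-regulated with a log2 fold change of 5.60 (edgeR quasi-likelihood test, adjusted p = 0.00258). ADHb was up-regulated as well, by 5.17 on the log2 scale (same test, adjusted p = 0.00377). The 7 genes annotated to the light reactions of photosynthesis in the partial annotation at hand were also looked at. Their summed level was 76.9 and 65.0 CPM in NS and 68.6 and 37.5 CPM in WS, and 0 of the 7 passed the test. No level expected of green tissue and no list of root markers was at hand, so neither green tissue nor root identity was checked.

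The residues of the AP2 domain differ between the groups. DREB-type domains are known for a valine at position 14 of the domain, and many also for a glutamate at position 19, residues that lie in the part that contacts DNA. Valine stood at position 14 in 28 of the 28 models. Leucine stood at position 19 in 5 of the 5 group I models, and glutamate stood there in 22 of the 23 group III models. The remaining model, JcERFIII-4, has an unread residue at that position. The coding strand of the domain is shown for the 5 members whose domain lies within the first 400 bases held here, so that the difference between the groups can be read in the codons. The capitals mark the codons of positions 14 and 19.
JcERFI-5: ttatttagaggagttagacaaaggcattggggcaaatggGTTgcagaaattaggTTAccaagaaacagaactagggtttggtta
JcERFIII-1: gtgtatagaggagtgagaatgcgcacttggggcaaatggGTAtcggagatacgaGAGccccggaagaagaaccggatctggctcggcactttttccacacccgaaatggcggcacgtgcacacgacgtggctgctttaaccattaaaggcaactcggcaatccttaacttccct
JcERFIII-3: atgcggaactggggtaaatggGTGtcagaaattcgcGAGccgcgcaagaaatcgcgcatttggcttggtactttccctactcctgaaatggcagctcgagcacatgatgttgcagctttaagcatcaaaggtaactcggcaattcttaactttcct
JcERFIII-5: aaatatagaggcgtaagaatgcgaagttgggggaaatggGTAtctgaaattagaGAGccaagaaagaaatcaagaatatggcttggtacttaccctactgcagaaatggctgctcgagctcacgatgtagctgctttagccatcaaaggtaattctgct
JcERFIII-11: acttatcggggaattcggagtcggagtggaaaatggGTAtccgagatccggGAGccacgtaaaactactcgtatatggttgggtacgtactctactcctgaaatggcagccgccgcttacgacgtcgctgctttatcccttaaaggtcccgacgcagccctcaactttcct
The stretches of JcERFIII-1, JcERFIII-3 and JcERFIII-11 run to the end of the domain, and those of JcERFI-5 and JcERFIII-5 to the last whole codon held. Position 19 is read as TTA (leucine) in JcERFI-5 and as GAG (glutamate) in the 4 group III members. The gene model of JcERFIII-3 starts inside the domain, and JcERFIII-11 is 1 codon shorter before position 14 than the others. In all models, positions 14 and 19 were found by a short motif around them, not by counting from the domain start. Between members of group I, 79.3 to 98.3% of domain residues were identical, between members of group III 73.1 to 92.3%, and between the groups 57.7 to 61.4%. JcERFIII-3, compared over 52 residues only, set both limits within group III and the lower limit between the groups. Without it these ranges were 75.4 to 86.2% and 60.3 to 61.4%.

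In group I, 4 of 5 models were members, and in group III 4 of 23. Of the 20 models below the CPM minimum, 13 had no read in any of the 4 libraries. The other 7 had 1 to 17 reads over all libraries and 41 reads together. Of all 57437 gene models of the series, 24805 had at least 1 read, so a model without a read was common. The models nearest to the minimum are compared here by the second highest of their 4 CPM values over total reads, the value that decided membership. It was 1.45 CPM in JcERFIII-5 and 2.17 CPM in JcERFI-5, the members with the lowest values. It was 0.790 CPM in JcERFIII-19 and 0.395 CPM in JcERFI-1, the models just outside.

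The models without a read included those with the signature of CBF proteins. In Arabidopsis and many other plants a short conserved motif precedes the AP2 domain of CBF/DREB1 factors, and 8 of the 23 group III models carried its end. All 8 of them had 0 reads in each of the 4 libraries, which allows up to 3 reads, or 0.459 to 2.27 CPM, for each model and library. It was found in none of the 8 members, but the model of JcERFIII-3 starts inside the domain and cannot show it. Of the other 15 group III models, 10 had at least 1 read and 5 had none, and 2 of the 15 start inside the domain. Of the 8 models with the signature, 4 form pairs that match at every residue of the shorter protein. These are JcERFIII-12 with JcERFIII-22, and JcERFIII-16 with JcERFIII-21, which is a partial model. Reads that fit both copies may not have been counted for either, so the 0 of these 4 is uncertain. Most gene models of the whole series had no read either, as given above. The shares in this paragraph were read from the counts that chose the members, and no test was made of them.

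JcERFIII-11 and JcERFIII-12, a model with the signature, are neighbours on scaffold Jcr4S02872 of genome release 4.5. JcERFIII-11 lies on the plus strand from 2564 to 3214. JcERFIII-12 lies at 9495 to 10172, with 6280 bases between the models. JcERFIII-12 is shown from the signature to the end of its AP2 domain. The capitals mark the signature, followed by the codons of positions 14 and 19.
JcERFIII-12: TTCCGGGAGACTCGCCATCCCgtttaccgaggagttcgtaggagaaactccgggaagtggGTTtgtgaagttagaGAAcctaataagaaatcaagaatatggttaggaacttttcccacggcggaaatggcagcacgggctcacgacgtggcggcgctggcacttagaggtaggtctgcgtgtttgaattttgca
JcERFIII-11 was read 36 and 3 times in the NS libraries and 27 and 3 times in the WS libraries, and JcERFIII-12, which has an identical copy in JcERFIII-22, had 0 in each library. Of the domain residues, 66.7% were identical between the neighbours.

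**Figure D1:**
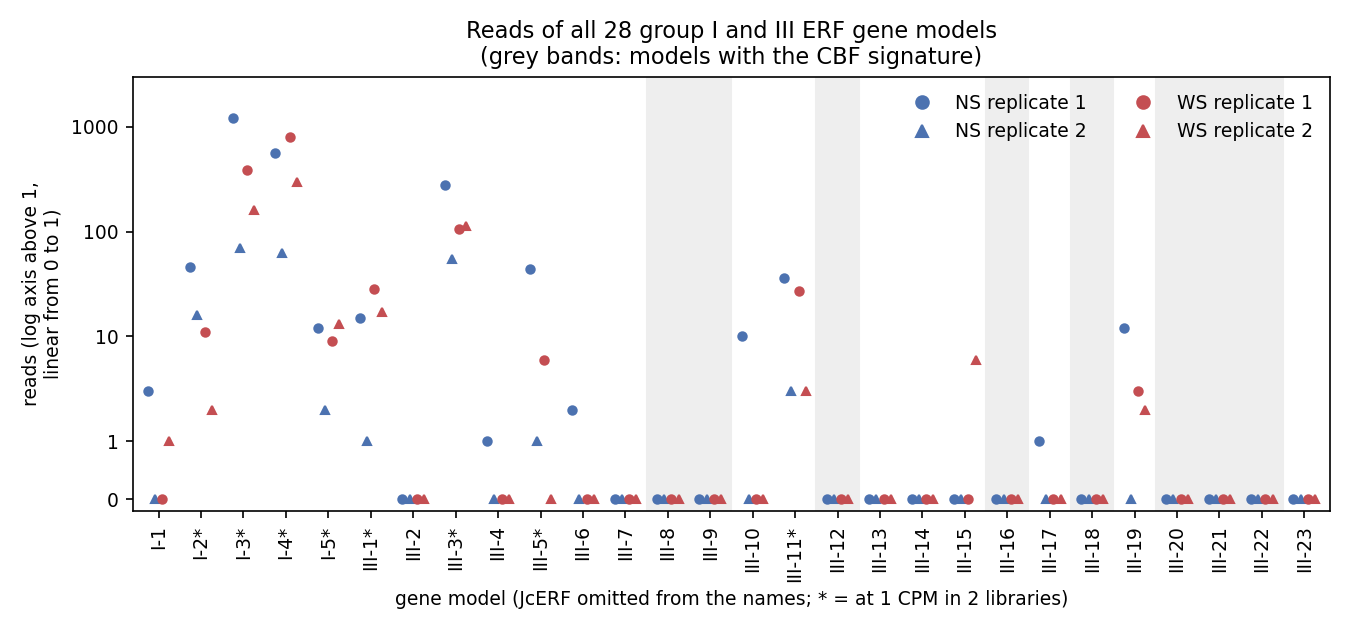
Raw reads of the 28 group I and III ERF gene models in each library (y axis, log above 1 read and linear from 0 to 1). Circles are replicate 1 and triangles replicate 2, blue is NS and red is WS, asterisks mark the 8 members, and grey bands mark the 8 models with the CBF signature, which sit at 0 in all 4 libraries.

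Copies of a gene can share reads. Among the 28 proteins, 5 pairs were identical over at least 90% of the shorter protein, and 9 of the 10 models in them had no read. None of the 8 members was in such a pair. The closest relative of any member was JcERFIII-2, identical to JcERFIII-3 at 61.2% of the residues of the shorter protein. JcERFIII-2 had 0 reads in each library. None of the members overlapped another gene model. The sources used here do not say how reads matching several models were counted, so the levels of the silent copies are uncertain.

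None of the 8 members was called for waterlogging. At an adjusted p under 0.05, edgeR's quasi-likelihood test called 760 of 17410 gene models (427 up, 333 down), or 4.37%, and 0 of the 8 members. At an unadjusted p under 0.05 the same test gave 1 of the 8, JcERFI-4, against 19.9% of all tested genes. DESeq2 called 0 of the 8 members and 10.3% of the genes to which it gave an adjusted p, and edgeR's likelihood ratio test called 0 of the 8 and 11.5% of all. The fitted log2 fold change was above 0 in 4 members and below 0 in 4, with a median of -0.038 against 0.0081 over all tested genes. A p that misses the threshold does not show that a gene did not respond, and the 95% intervals of the members were 2.29 to 7.31 log2 units wide.

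The replicates tell how far each member can be read. CPM values below are over TMM-scaled library sizes. Both WS libraries lay above both NS libraries in 3 members (JcERFI-4, JcERFI-5 and JcERFIII-1), and this held for 25.7% of all tested genes. Both WS libraries lay below both NS libraries in 1 member (JcERFI-2), and this held for 26.8% of all tested genes. In the other 4 members the treatments overlapped. These shares are close to the background for so few members and are not a result about them.

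**Figure D2:**
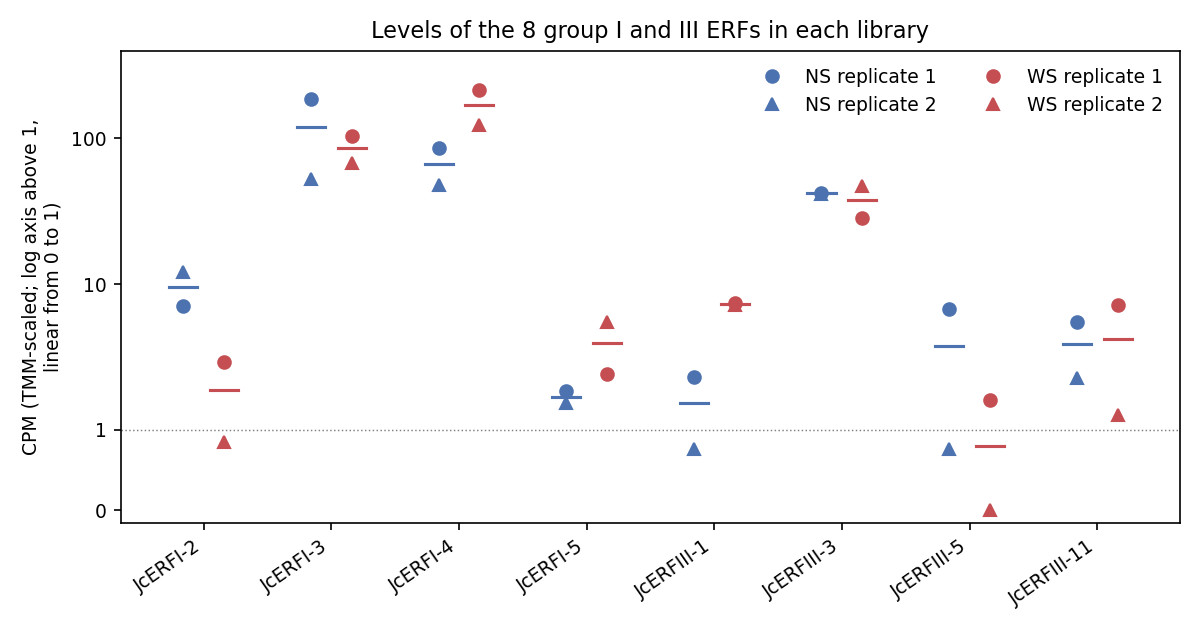
Level of each of the 8 members in CPM over TMM-scaled library sizes (y axis, log above 1 and linear from 0 to 1). Circles are replicate 1, triangles replicate 2, horizontal bars the mean of the 2 libraries of a treatment, and the dotted line 1 CPM. WS lies above NS in JcERFI-4, JcERFI-5 and JcERFIII-1 and below NS in JcERFI-2.

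JcERFI-4 (Jcr4S02295.20, scaffold Jcr4S02295, plus strand, 6152 to 7230, 2 coding exons) came nearest to the threshold. It had 86.6 and 47.6 CPM in NS and 214 and 125 CPM in WS, or 67.1 ± 27.5 against 170 ± 63.5 (mean ± SD, n = 2 each). Both WS libraries were above both NS libraries, and the libraries of a treatment differed as well. Its log2 fold change was 1.33 with an SE of 0.51 and a 95% interval of 0.18 to 2.47 (edgeR quasi-likelihood test, adjusted p = 0.186). The fit gave 1.64 without WS replicate 2 and 0.92 without WS replicate 1. It gave 1.83 without NS replicate 1 and 0.97 without NS replicate 2. Among the 15 alternatives, none that kept all libraries called the gene. Calls from fits with a library left out are not read, since they rest on a lone library in a treatment. Scaling by total reads alone moved the median of all genes by -0.22 and gave JcERFI-4 a log2 fold change of 1.09.

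JcERFI-3 (Jcr4S01198.20, scaffold Jcr4S01198, minus strand, 7416 to 8546, 1 coding exon) had the highest mean level in NS. Per kilobase of coding length it was below JcERFI-4 and JcERFIII-3 in NS replicate 2 (46.8 against 47.8 and 69.3 CPM). Its level was 187 and 52.9 CPM in NS and 104 and 67.8 CPM in WS. Both WS values fell between the 2 NS values, which lay far apart. The fitted change was -0.49 on the log2 scale with an SE of 0.61 (edgeR quasi-likelihood test, adjusted p = 0.729). Its sign rested on the high NS library: without NS replicate 1 the change was 0.70.

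JcERFI-3 and JcERFI-4 have nearly the same AP2 domain and together held most of the group I reads. Their domains were identical at 57 of 58 residues and the whole proteins at 57.1% of residues. They took 88.1 to 98.4% of the group I reads of a library. The share of JcERFI-3 in the reads of both genes does not depend on how libraries are scaled. It was 68.3% in NS replicate 1 (95% Wilson interval 66.2 to 70.5, of 1788 reads) and 52.6% in NS replicate 2 (44.2 to 60.9, of 133 reads). In WS it was 32.7% in replicate 1 (30.1 to 35.4, of 1197 reads) and 35.2% in replicate 2 (31.0 to 39.7, of 457 reads). JcERFI-3 thus held over 50% of these reads in both NS libraries and under 50% in both WS libraries, although the interval of NS replicate 2 reaches below 50%. The pair was chosen after the values were seen, so no test is given. The intervals cover counting error only and leave out variation between replicates, and those of the NS libraries do not overlap. Reads without molecular identifiers are not independent molecules, so the counting error itself may be understated.

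**Figure D3:**
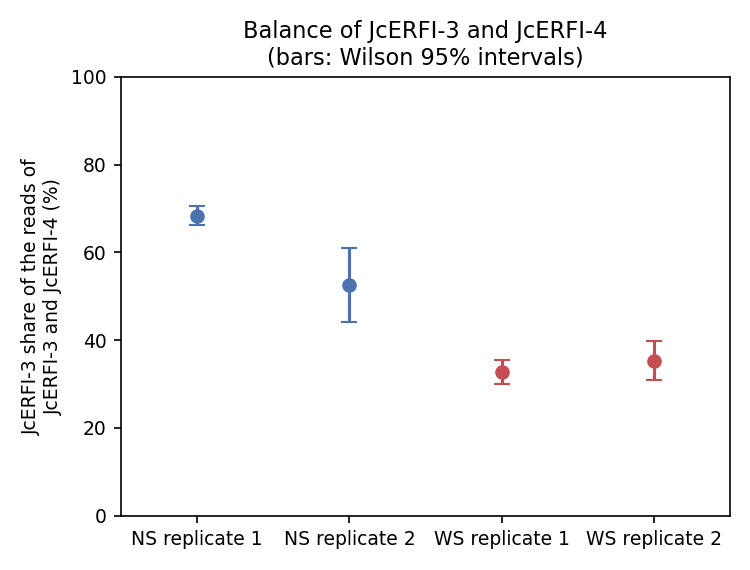
Share of JcERFI-3 (%, y axis from 0 to 100) in the summed reads of JcERFI-3 and JcERFI-4 in each library (x axis). Points are shares and bars are 95% Wilson intervals. Both NS libraries lie above 50% (68.3 and 52.6%) and both WS libraries below (32.7 and 35.2%).

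The other group I members were low. JcERFI-2 (Jcr4S00098.220, scaffold Jcr4S00098, minus strand, 75819 to 77174) had 7.04 and 12.1 CPM in NS and 2.93 and 0.842 CPM in WS, from 46, 16, 11 and 2 reads. Both WS values were below both NS values, and the value in WS replicate 2 was under the limit that 3 reads set there (1.26 CPM). The fitted log2 change was -2.26 with an SE of 1.15 and an interval of -4.84 to 0.32 (edgeR quasi-likelihood test, adjusted p = 0.319), and it lay between -3.40 and -1.71 under the alternatives. JcERFI-5 (Jcr4S04974.10, scaffold Jcr4S04974, plus strand, 947 to 2020, 3 coding exons) had 1.84 and 1.51 CPM in NS and 2.39 and 5.47 CPM in WS. Both WS libraries were higher, on few reads, with 12 and 2 reads in NS and 9 and 13 in WS. The log2 fold change of 1.17 had an SE of 1.27 (same test, adjusted p = 0.684), and with all libraries thinned to equal depth it was -0.086.

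The highest member of group III was JcERFIII-3 (Jcr4S00534.100, scaffold Jcr4S00534, plus strand, 53727 to 54326, 1 coding exon). It had 42.2 and 41.6 CPM in NS and 28.2 and 47.1 CPM in WS, and held 62.4 to 91.7% of the group III reads of a library. The NS libraries were nearly equal and lay between the WS libraries. The log2 fold change was -0.16 with an SE of 0.53 and an interval of -1.35 to 1.04 (edgeR quasi-likelihood test, adjusted p = 0.917), which leaves out changes of more than 2.56 times down or 2.06 times up. Without WS replicate 1 it was 0.20.

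JcERFIII-1 (Jcr4S00034.80, scaffold Jcr4S00034, minus strand, 49225 to 49971, 1 coding exon) is annotated in the study's tables as most like Arabidopsis TINY2, a DREB-type factor of the TINY-like branch. It had 2.29 and 0.756 CPM in NS and 7.45 and 7.16 CPM in WS, from 15, 1, 28 and 17 reads. The WS libraries were close to each other and above both NS libraries, of which NS replicate 2 held a single read. WS exceeded NS by 2.09 on the log2 scale with an SE of 1.16 and an interval of -0.51 to 4.69 (edgeR quasi-likelihood test, adjusted p = 0.365). It stayed above 0 under the alternatives, between 1.66 and 3.19, and passed the threshold in none of them.

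JcERFIII-5 (Jcr4S00845.160, scaffold Jcr4S00845, plus strand, 61067 to 61810) had 6.73 and 0.756 CPM in NS and 1.60 and 0 CPM in WS. Its reads, 44, 1, 6 and 0, were mostly those of NS replicate 1. The log2 fold change was -2.18 with an SE of 1.62 (edgeR quasi-likelihood test, adjusted p = 0.523), and without NS replicate 1 it was 0.19. JcERFIII-11 had 5.51 and 2.27 CPM in NS and 7.18 and 1.26 CPM in WS, so replicate 1 was the higher library in both treatments. Its log2 fold change was 0.082 with an SE of 1.23 (same test, adjusted p = 0.982), and the sign changed under 5 alternatives, total reads as the scale among them.

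**Figure D4:**
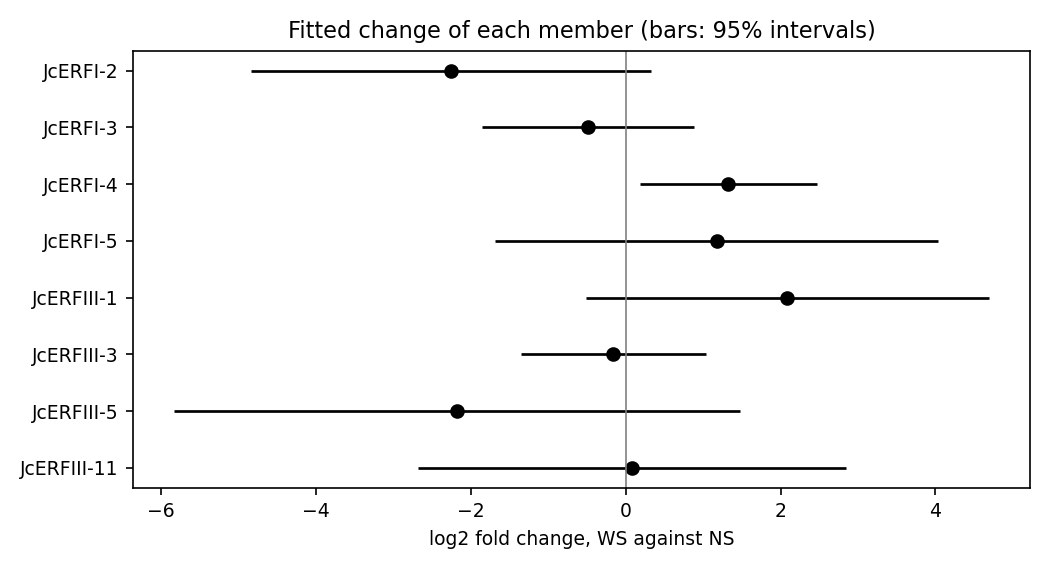
Fitted log2 fold change of WS against NS (x axis) for each of the 8 members (y axis); points are estimates and bars 95% intervals of the edgeR quasi-likelihood fit. Only the interval of JcERFI-4 (0.18 to 2.47) leaves out 0, before adjustment over all genes.

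Levels of the members can be set against each other only per length. Per kilobase of coding length, in CPM, JcERFI-3 was highest in NS (mean 106), followed by JcERFIII-3 (69.8) and JcERFI-4 (67.4). The libraries of neighbours in this order overlapped, so the top 3 were not separated in NS. A gap followed to JcERFI-2 (7.06), and the remaining 4 members, with means from 2.04 to 5.97, overlapped their neighbours. In WS, JcERFI-4 was highest (mean 170) and both its libraries lay above those of JcERFI-3 (75.9), which overlapped JcERFIII-3 (62.8). JcERFIII-1 followed (9.78), after the last place in NS, but its WS libraries overlapped those of JcERFIII-11 (6.49). JcERFIII-5 was lowest (1.07) and overlapped JcERFI-2 (1.39).

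Summed over all models, group I had 283 and 114 CPM in NS and 324 and 199 CPM in WS, and group III had 60.7 and 45.4 CPM in NS and 45.2 and 58.9 CPM in WS. The treatments overlapped in both sums. All other AP2/ERF genes together had 2475 and 1775 CPM in NS and 9831 and 8884 CPM in WS. Group I thus made up 10.03% (95% Wilson interval 9.61 to 10.5) and 5.90% (5.05 to 6.88) of the AP2/ERF reads of the NS libraries. In the WS libraries it made up 3.17% (3.00 to 3.35) and 2.18% (1.99 to 2.38). Group III made up 2.15% (1.95 to 2.37) and 2.35% (1.83 to 3.01) in NS, and 0.443% (0.382 to 0.515) and 0.645% (0.546 to 0.760) in WS. Both shares were lower in both WS libraries, while the groups' own sums were not. The Wilson intervals leave out variation between replicates, and those of group I in the NS libraries do not overlap. In RNA of whole roots, fewer cells of a type and less RNA per cell cannot be told apart.

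Calls in the other AP2/ERF groups were counted beside those of groups I and III. Outside these groups, 55 of the 102 AP2/ERF models at hand were tested. Of the 55, 11 were up-regulated, 1 was down-regulated and 43 were not called, with a median log2 fold change of 1.24. The background was 4.37%, as above. Within the DREB-type branch, group II had 3 of 9 models tested and 1 up-regulated, and group IV had 0 of 7 models above the CPM minimum. The group II gene was JcERFII-4, with 13.9 and 21.2 CPM in NS and 121 and 128 CPM in WS (log2 fold change 2.85, edgeR quasi-likelihood test, adjusted p = 0.0170). In group VII, whose Arabidopsis members act in the low-oxygen response, 2 of 3 tested genes were up-regulated, and in group IX, known for defence and ethylene responses, 5 of 14 were up-regulated and 1 was down-regulated. Groups VIII, X and RAV had 1 up-regulated gene each, of 7, 4 and 2 tested. As in groups I and III, no gene was called among the 11 tested of AP2, 5 of group V, 2 of group VI, 3 of group VI-L and 1 of Soloist. Whether any of these groups differ from groups I and III was not tested.

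**Figure D5:**
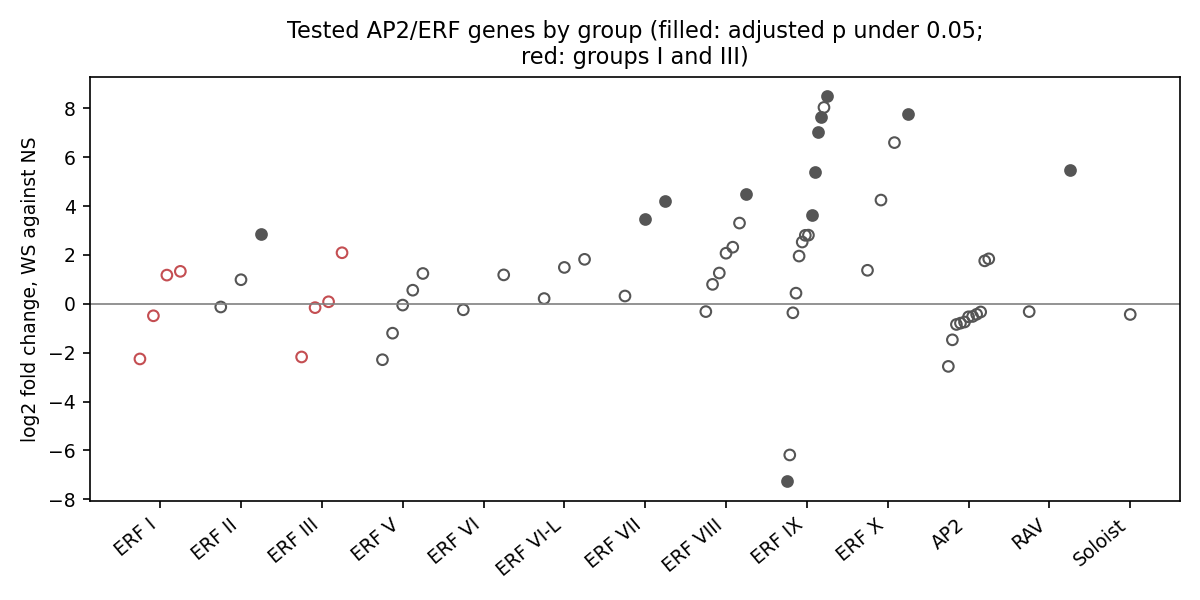
Fitted log2 fold change of WS against NS (y axis) of the 63 tested AP2/ERF genes by group (x axis); each point is a gene, filled where the adjusted p was under 0.05 and red in groups I and III. The 8 red points are all open, and 12 of the 55 others are filled.

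Genes with patterns like those of JcERFI-4 and JcERFIII-1, the members of each group with the smallest p, were sought among the 55 tested AP2/ERF genes of other groups. Likeness was the distance between log2(CPM + 1) values centred on their mean over the 4 libraries. Nearest to JcERFI-4 were JcERFVI-L-1 (distance 0.482), JcERFVIII-4 (0.575) and JcAP2-13 (0.627), against a median distance of 2.11. Nearest to JcERFIII-1 were JcAP2-13 (0.209), JcERFVIII-7 (0.563) and JcERFV-8 (0.679), against a median of 2.09. None of these 5 genes was called (edgeR quasi-likelihood test, adjusted p from 0.0866 to 0.621). With 4 libraries such distances describe these libraries only.

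Genes that the annotation at hand assigns to abiotic stress, the responses for which DREB-type factors are best known, were also counted. The annotation covers only part of the tested genes and gives 13 such genes, 9 of them annotated to heat. Drought or salt genes are among the rest, but cold, the response named above for CBF/DREB1 factors, is not in the list. None of the 13 was called by edgeR's quasi-likelihood test, against 4.37% of all tested genes, and 4 had an unadjusted p under 0.05, against 19.9%. So few genes say little against these shares, and their median log2 fold change was -0.24 against 0.0081 over all tested genes.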

How the data were processed

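Poly(A) RNA of Jatropha roots was sequenced on the Ion Proton. Read trimming, mapping with TMAP to genome release 4.5 and counting with HTSeq were done by the authors, who deposited raw counts for 57437 gene models. Tool versions, the strand setting and the treatment of multiply mapped reads are not given in the sources used here. A deposited table of the authors' own edgeR comparison (fold changes, likelihood ratios, p-values, false discovery rates and CPM) was not used. Positions are from the deposited annotation of release 4.5.

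Models with at least 1 CPM over total reads in at least 2 libraries were tested in edgeR 4.0.16 (R 4.3.3) with TMM scaling, glmQLFit and glmQLFTest, 2-sided, without covariates, and Benjamini-Hochberg adjustment over 17410 models at 0.05. SEs were derived from the F statistic, and CPM is over TMM-scaled sizes unless stated. With 2 libraries against 2, a permutation test cannot go below p = 0.333, so p-values come from the model. The biological coefficient of variation was 0.536. limma 3.58.1 (voom) and DESeq2 1.42.0 served as alternatives, with other scalings, filters, equal depth, a replicate block and each library left out. In the last, the gene set was kept and a lone library was assumed to vary like the other treatment.

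Gene groups, protein and coding sequences (the latter cut at 400 bases) come from the study's AP2/ERF table. JcERFVII-1 was added from the study's primer list, which gave 130 AP2/ERF genes, fewer than the study reports. Identities were computed with Biopython 1.88 (BLOSUM62, free end gaps, over the shorter protein), and summaries with Python 3.11.15. Of the 8 members, 0 matched an ID in the RefSeq gene table. Of the first-listed genes by ID, 665 had a functional annotation at hand. The members and lists were chosen with earlier results of these data known. The text names the 8 members, the genes nearest in pattern to the member of each group with the smallest p, ADHa and ADHb, and any abiotic stress gene that passed the test. Other genes (the models beside the CPM minimum, close copies, JcERFII-4) were named after their values were seen.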

Additional observations from a re-analysis of the deposited data

How the results depend on the processing

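The number of members called was 0 of 8 in the reported fit and under 14 of the 15 alternatives, and 0 to 1 with single libraries left out. Over all gene models, 760 were called in the reported fit, 1963 without a filter on low counts, 2004 with the likelihood ratio test, 1660 with DESeq2, 470 with all libraries thinned to equal depth in 1 draw, and 0 to 2293 with single libraries left out (0 without either NS library). The deviations of same-numbered libraries correlated at 0.096 over genes, which does not settle whether the libraries were paired. The reported fit treats them as unpaired. The fit with the replicate number as a block called 1684 gene models and 0 of the 8 members. The log2 fold change of JcERFIII-11 was -0.16 with total reads as the scale, -0.32 with limma voom and -0.096 with the replicate block, and that of JcERFI-5 was -0.086 at equal depth. With single libraries left out it ran from -1.12 to 0.70 in JcERFI-3, -0.60 to 0.20 in JcERFIII-3, -6.79 to 0.19 in JcERFIII-5 and -1.61 to 0.91 in JcERFIII-11. The cause was not tested. The signs of JcERFI-2, JcERFI-4 and JcERFIII-1 were the same under the 15 alternatives. JcERFI-5 was not tested with filterByExpr and with a mean count of 10, and JcERFIII-5 not with filterByExpr and at equal depth. Other minimum levels kept 7 to 9 of the 28 models, and 2 of 32 ranks by level moved, both with introns counted in the length. NS replicate 2, at 1204502 reads, limits the low members most, since 3 reads are 2.27 CPM there.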
